A study of Drosophila melanogaster with 16 samples.

Results

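Input chromatin of Drosophila melanogaster S2 cells was sequenced in 4 libraries, 2 from lamin knock-down (Lam-KD) cells and 2 from control cells, out of 16 libraries of the series. They were chosen by their sample labels alone, and each lists reads in 168729 bins of 1 kb on the dm3 build, of which 132948 held at least 1 read in at least 1 input. RNA interference lasted 5 days by the sample records, with dsRNA to the lamin Dm0 transcript in Lam-KD cells and dsRNA to lacZ, a bacterial gene that flies lack, in control cells. The methods text gives a shorter time, and which of them holds was not settled. All cells came from 1 stock of the S2 line, and each condition had 2 biological replicates. The comparison asks whether the DNA that serves as the reference for H3 pan-acetylation, and the copy number it shows, was alike in both conditions.

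S2 is a macrophage-like line from late embryos of male flies. Like many lines kept for long in culture, it is polyploid and carries gains and losses of chromosome segments, with fewer copies of the X chromosome than of the autosomes. Input is the cross-linked and sonicated chromatin set aside before immunoprecipitation, so that its read density follows the number of DNA copies, and also how readily a sequence is recovered and mapped. Lamin Dm0, the B-type lamin encoded by Lam, lines the nuclear envelope, and the chromatin that touches it forms lamina-associated domains (LADs).

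The inputs held 2174734 and 3512310 reads in Lam-KD cells, against 2990256 and 1997575 reads in control cells. The sample records describe the Lam-KD inputs with the phrase used for immunoprecipitated DNA, so their label was checked. The 4831 autosomal bins with the most H3 pan-acetylation reads held 14.6% and 14.7% of autosomal reads in the Lam-KD inputs, against 14.5% and 14.6% in the control inputs. The same bins held 22.9% and 22.2% in the Lam-KD immunoprecipitated libraries, against 31.0% and 31.2% in the control ones. The 4 inputs therefore lay together. They also lay apart from the immunoprecipitated libraries, although the bins were chosen by the reads of those libraries, which by itself raises the share there. Control replicate 1 stood apart from the other 3 inputs in a set of narrow bins described further on, and the values that move with it are also given without it.

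The X chromosome was covered at about 0.62 of the autosomal density in both conditions. Read density here is the number of reads per covered 1-kb bin, a bin with at least 1 read in any input or immunoprecipitated library, and the ratio is that of X to the arms 2L, 2R, 3L and 3R. It was 0.622 and 0.619 in Lam-KD cells, against 0.629 and 0.612 in control cells, so that the Lam-KD values lay between the control values. Their means were 0.620 ± 0.0021 in Lam-KD cells and 0.621 ± 0.012 in control cells (SD, n = 2 each), and an exact two-sided permutation test gave p = 1. With 2 libraries against 2 this test cannot go below 0.333. The difference between a Lam-KD and a control library ranged between -0.010 and 0.010 over the 4 pairs. The 95% counting intervals were 0.619 to 0.625 and 0.617 to 0.621 in Lam-KD cells, against 0.627 to 0.631 and 0.609 to 0.615 in control cells, so that the control replicates differed by more than counting error. Without the 1-kb bins in which 1 library stood apart, a set chosen after the data were seen, the ratio was 0.622 and 0.619 in Lam-KD cells, against 0.625 and 0.611 in control cells. The ratio also depended on the measure. As a median of 20-kb windows it was 0.599 and 0.585 in Lam-KD cells, against 0.594 and 0.577 in control cells. Against autosomal regions near the most common level it was 0.643 and 0.640 in Lam-KD cells, against 0.649 and 0.634 in control cells. It was lowest as a ratio of lower quartiles of 1-kb bins in the immunoprecipitated libraries. There it was 0.484 and 0.507 in Lam-KD cells, against 0.489 and 0.467 in control cells. In bulk DNA, a ratio between whole copy numbers and a mixture of cells with different copy numbers cannot be told apart.

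The large arms took almost equal shares of the reads in every library. Arm 2L held 18.8% and 18.9% of the reads in Lam-KD cells, against 18.6% and 18.8% in control cells. Arm 2R held 18.95% and 19.09% in Lam-KD cells, against 19.11% and 19.13% in control cells. Arm 3L held 20.4% and 20.6% in Lam-KD cells, against 20.5% and 20.5% in control cells. Arm 3R held 24.7% and 24.8% in Lam-KD cells, against 25.0% and 24.9% in control cells. X held 11.8% and 11.8% in Lam-KD cells, against 12.0% and 11.6% in control cells. On these 5 arms the mean log2 ratio of Lam-KD over control lay between -0.011 on 3R and 0.012 on 2L.

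Chromosome 4, a small autosome that is largely heterochromatic, had a density relative to the large arms of 0.828 and 0.826 in Lam-KD cells, against 0.772 and 0.821 in control cells. The Lam-KD values were both higher, but the control replicates differed from each other by more than the Lam-KD libraries differed from control replicate 2. Over all 15 chromosomes and scaffolds, 8 had libraries that did not overlap between conditions (53.3%). No single exact permutation test of a share could reach the 0.05 threshold, since the smallest p was 0.333. If the conditions are alike, the libraries of a single feature do not overlap with the same probability, 0.333. This holds also for the windows and segments described below, and features of the same libraries are not independent.

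**Figure D1:**
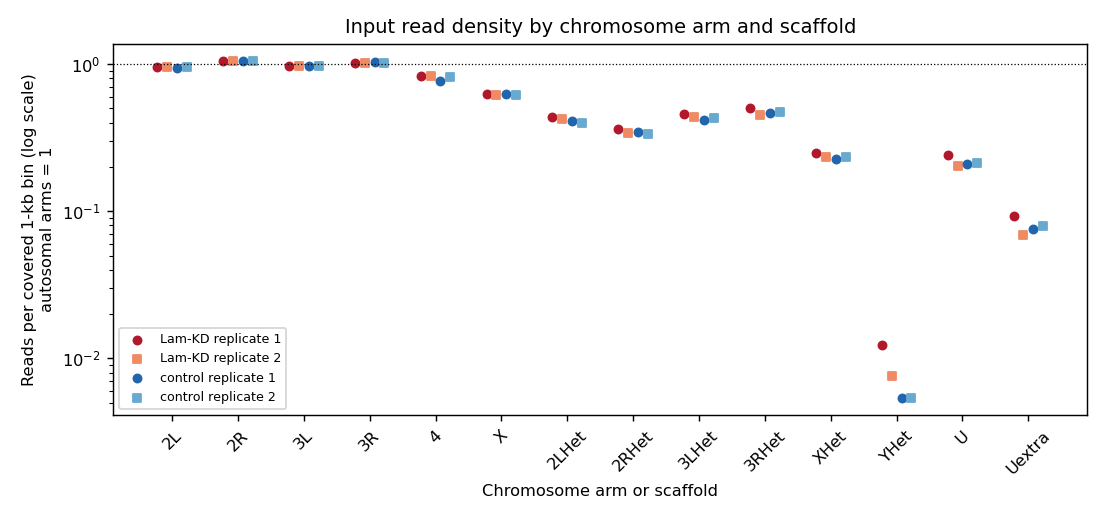
Reads per covered 1-kb bin, relative to the large autosomal arms and on a log scale, for each chromosome arm and scaffold, with 1 point per input library (circles replicate 1, squares replicate 2). The 4 libraries lie close together on the arms, where X sits at 0.612 to 0.629, and lie furthest apart on YHet, where each library has at most 5 reads.

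The heterochromatic scaffolds, which hold assembled parts of the repeat-rich DNA near centromeres, were covered less densely than the arms. Scaffold 3RHet had a relative density of 0.505 and 0.452 in Lam-KD cells, against 0.463 and 0.472 in control cells. Scaffold XHet had 0.249 and 0.235 in Lam-KD cells, against 0.227 and 0.233 in control cells. Their densities also depend on how many reads map uniquely, which was not examined. Scaffolds 2LHet and 3LHet were higher in both Lam-KD libraries than in both control libraries, with mean log2 ratios of 0.086 and 0.087, while 2RHet and 3RHet overlapped. Within Lam-KD cells, replicate 1 exceeded replicate 2 by a log2 ratio of 0.15 on 3RHet, 0.23 on U and 0.43 on Uextra, the last 2 being collections of unplaced sequence.

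Reads from the Y chromosome were nearly absent. YHet, the assembled part of the Y chromosome, held 5 and 5 reads in Lam-KD cells, against 3 and 2 reads in control cells. Only 21 of its 347 bins had a read in any input or immunoprecipitated library, whereas 231 of 368 bins of 2LHet did. The share of reads on YHet in Lam-KD replicate 1 was 0.00023% with a 95% Wilson interval of 9.8e-05 to 0.00054%, and in control replicate 2 it was 0.00010% with an interval of 2.7e-05 to 0.00037%. These intervals overlap, but they cover counting error only, and their overlap is not a test of a difference. Both Lam-KD shares lay above both control shares. With at most 5 reads in a library, the counts are too few to tell whether the conditions differed.

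Mitochondrial DNA gave the least stable share. It took 0.322% and 0.207% of the reads in Lam-KD cells, against 0.215% and 0.305% in control cells, and the conditions overlapped. The exact two-sided permutation test gave p = 1 for n = 2 each. The read numbers themselves, 6997 and 7271 in Lam-KD cells, against 6422 and 6089 in control cells, spanned 1.19-fold, while the library totals spanned 1.76-fold. The shares were thus highest in the shallowest library of each condition. In the 18 mitochondrial bins with a mean of at least 50 reads, the highest library exceeded the lowest by 1.10- to 1.46-fold. The authors removed duplicate reads, and the part of that step in the mitochondrial shares was not tested.

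Along the arms the input profile fell into steps, most of which were found in each library alone. Log2 read density in 20-kb windows, relative to the median autosomal window of the library, was divided into segments of constant level by least-squares partitioning of the mean of the 4 inputs. This gave 68 segments with 62 steps between them, 51 segments on the large autosomal arms, 16 on X and 1 on chromosome 4. The median step was 1.16 on the log2 scale, and steps ranged between 0.39 and 2.25. Partitioning the libraries one at a time gave 55 and 61 segments in Lam-KD cells, against 63 and 63 in control cells. Of the 62 steps, 40 were found within 40 kb in all 4 libraries and 56 in at least 1. Of the 49 steps of Lam-KD replicate 1 alone, 0 were found in Lam-KD replicate 2 and in neither control library. Of the 57 steps of control replicate 1 alone, 1 was found in control replicate 2 and in neither Lam-KD library.

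**Figure D2:**
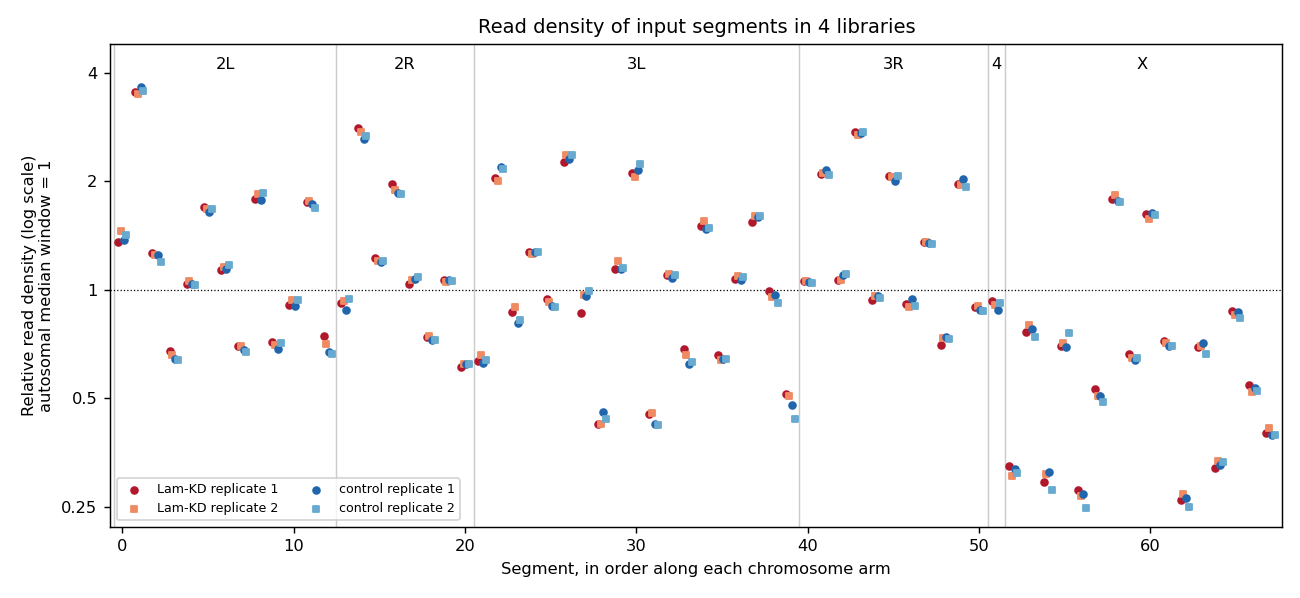
Read density of the 68 input segments, relative to the median autosomal window and on a log scale, in the order in which they follow each other along each arm, with 1 point per library. The points of a segment nearly coincide, with a median range of 4.67% of the level, while levels run between 0.259 and 3.56.

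Autosomal segments had levels between 0.428 and 3.56, with 1 as the median autosomal window. Segments between 0.8 and 1.2 covered 59.6 Mb in 19 segments, those under 0.8 covered 22.66 Mb in 13 segments, and those over 1.2 covered 14.28 Mb in 19 segments. The highest of at least 500 kb was chr3R:15680001-17500000, with levels of 2.07 and 2.06 in Lam-KD cells, against 2.00 and 2.07 in control cells. Next came chr2L:13000001-13620000, with levels of 1.78 and 1.84 in Lam-KD cells, against 1.77 and 1.86 in control cells. The third was chr2L:21080001-22220000, at the base of the arm, with levels of 1.75 and 1.76 in Lam-KD cells, against 1.72 and 1.68 in control cells. The other 7 of the 10 highest had mean levels between 1.14 and 1.66. A short segment chosen after its values were seen, chr2L:400001-600000, reached 3.53 and 3.49 in Lam-KD cells, against 3.66 and 3.56 in control cells.

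The lowest autosomal segment of at least 500 kb was chr3L:8720001-9320000, with levels of 0.424 and 0.424 in Lam-KD cells, against 0.458 and 0.439 in control cells. The segment chr3L:23340001-24540000, at the base of the arm, had levels of 0.514 and 0.509 in Lam-KD cells, against 0.479 and 0.439 in control cells. It had the widest range of all segments, 15.5% of its level, and in it both Lam-KD libraries lay above both control libraries. At the far end of arm 2R, chr2R:20000001-21140000 had levels of 0.612 and 0.624 in Lam-KD cells, against 0.621 and 0.623 in control cells. The levels of the first pair of segments did not overlap between conditions, and those of the last did. As shares of the library total, which the test uses, chr3L:8720001-9320000 overlapped between conditions, with a log2(FC) of -0.0085, and chr3L:23340001-24540000 did not, with a log2(FC) of 0.024. Neither was called.

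The X chromosome was itself divided into 16 segments, with levels between 0.259 and 1.77. Segments at or below 0.4 covered 5.94 Mb, and those above 1 covered 0.62 Mb. The lowest, chrX:13920001-14640000, had levels of 0.261 and 0.271 in Lam-KD cells, against 0.265 and 0.25 in control cells. The segment chrX:3780001-4800000 had levels of 0.278 and 0.268 in Lam-KD cells, against 0.272 and 0.247 in control cells. The tip of the chromosome, chrX:20001-1720000, had levels of 0.324 and 0.304 in Lam-KD cells, against 0.318 and 0.310 in control cells. The libraries of the conditions overlapped in all 3. The other 4 of the 10 lowest segments of at least 500 kb were also on X, with mean levels between 0.290 and 0.526. The X to autosome ratio is thus an average over segments of very unequal level.

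Windows of 1 Mb gave the same picture at a fixed size. On the autosomes the highest were chr3R:16000001-17000000 with a mean level of 1.89, chr2R:1000001-2000000 with 1.72 and chr2L:8000001-9000000 with 1.60, and the lowest were chr3R:23000001-24000000 with 0.552, chr2R:20000001-21000000 with 0.563 and chr3L:23000001-24000000 with 0.586. On X the highest were chrX:5000001-6000000 with 0.993, chrX:19000001-20000000 with 0.893 and chrX:18000001-19000000 with 0.829. The lowest on X were chrX:4000001-5000000 with 0.301, chrX:1-1000000 with 0.305 and chrX:3000001-4000000 with 0.373.

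The immunoprecipitated libraries, which share the cultures with the inputs, had levels that largely rose and fell with those of the inputs over the segments defined from the inputs. Steps were not searched for in them. Across the 68 segments, the log2 input level had a Pearson correlation of 0.952 with the log2 mean of the H3 pan-acetylation libraries and of 0.936 with their lower quartile, in which fewer acetylated windows count. Both are descriptions across segments, which are not independent replicates and share the depth and base composition of the libraries. Single segments departed from this. Chromosome 4 had an input level of 0.901, against 0.461 for the mean and 0.499 for the lower quartile of the H3 pan-acetylation libraries. At the base of 3L, chr3L:23340001-24540000 had 0.484, against 0.271 and 0.208. Other segments went the other way, such as chrX:20001-1720000, with 0.311 against 0.450 and 0.382.

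Copy number at the scale of megabases did not change detectably with Lam-KD. In 1-Mb windows of the arms, the log2 ratio between a Lam-KD and a control library had an SD of 0.026 to 0.039 over windows, against 0.020 between the Lam-KD replicates and 0.035 between the control replicates. The edgeR quasi-likelihood test at a Benjamini-Hochberg adjusted p under 0.05 called 0 of 176 windows (0%), and 7 had an unadjusted p under 0.05. DESeq2 called 2 windows, and leaving out 1 library gave between 0 and 6 calls in edgeR, the most without Lam-KD replicate 1. The libraries of the conditions did not overlap in 60 of the 176 windows (34.1%), and the log2(FC) was under 0.1 in size in 121 of 123 windows of the arms.

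**Figure D3:**
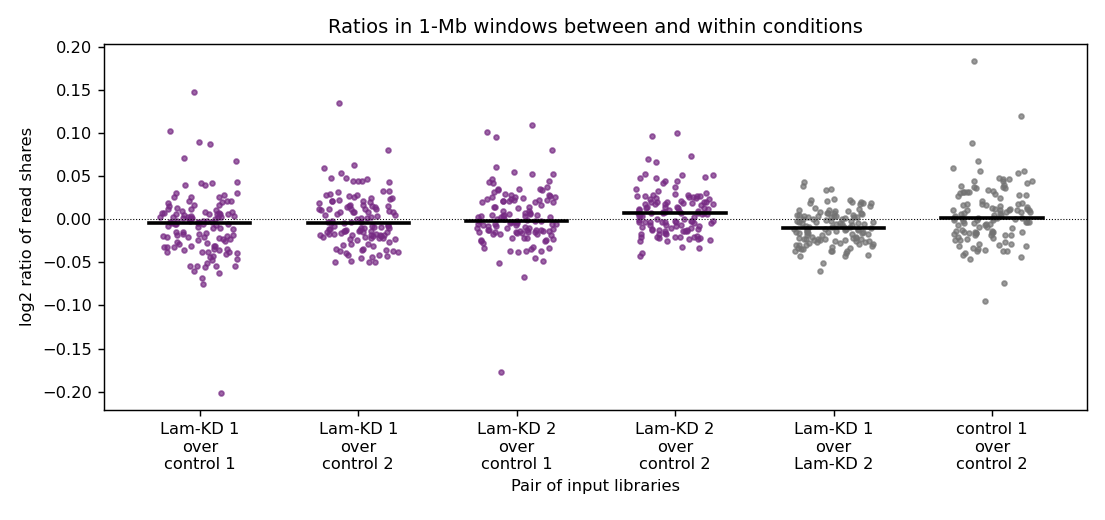
Log2 ratio of the share of reads in each of 123 windows of 1 Mb on the chromosome arms, for the 4 pairs of a Lam-KD over a control library (purple) and for the 2 pairs within a condition (grey), with the median as a bar. The spread of the pairs across conditions, an SD of 0.026 to 0.039, overlaps that of the replicates, 0.020 in Lam-KD cells and 0.035 in control cells.

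The 1-Mb window with the smallest p was chr2L:5000001-6000000. It held 19476 and 30628 reads in Lam-KD cells, against 24185 and 16297 reads in control cells. Its log2(FC) was 0.12 ± 0.029 (SE), and its adjusted p was 0.703 in edgeR and 0.0054 in DESeq2. With 1 library left out its log2(FC) lay between 0.10 and 0.14, and edgeR called it in all such fits but that without control replicate 1. The window holds 2 narrow bins that were high in Lam-KD cells, described further on, and without them its log2(FC) was 0.0056 with an adjusted p of 1 in edgeR. The next smallest p values fell on chr3R:14000001-15000000, with a log2(FC) of -0.031, chr3R:1-1000000, with -0.028, and chr3R:11000001-12000000, with -0.027, none of which passed in either tool. Among windows with higher values in Lam-KD cells, chr3LHet:1-1000000 came next, with a log2(FC) of 0.10 and an adjusted p of 0.938 in edgeR and 0.0434 in DESeq2, and then chr2R:1-1000000, with a log2(FC) of 0.042 that passed in neither.

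Of the 68 segments, edgeR called 1 (1.47%), chr2L:4800001-7960000, and 7 had an unadjusted p under 0.05. This segment held 57661 and 93155 reads in Lam-KD cells, against 77284 and 51658 reads in control cells, with a log2(FC) of 0.037 ± 0.015 (SE) and an adjusted p of 0.0159 in edgeR and 0.656 in DESeq2. It contains a narrow peak of 2 bins at chr2L:5543001-5545000, described next. Without these bins its log2(FC) was -0.00094 and edgeR called 0 of the 68 segments, whereas with any 1 library left out its log2(FC) stayed between 0.036 and 0.037, although it was not called. DESeq2 was not run without these bins. In 35 of the 68 segments the libraries did not overlap between conditions (51.5%), and 67 had a log2(FC) under 0.1 in size. The exception was chrX:2640001-3560000, with a log2(FC) of -0.22 and an adjusted p of 0.485 in edgeR. Its log2(FC) was -0.047 without control replicate 1, and between -0.35 and -0.19 and called without any 1 of the other 3 libraries. Without the 19 called 1-kb bins, an alternative added after the data were seen, it was 0.019.

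A few narrow bins were called between the conditions, some of them through 1 control library. In 1-kb bins with a mean of at least 10 reads, edgeR called 19 of 102394 (0.0186%), 2 of them higher and 17 lower in Lam-KD cells, with 5349 at an unadjusted p under 0.05. Among the 19, DESeq2 called 4. In 20-kb windows edgeR called 4 of 7077 (0.0565%), 1 higher and 3 lower, with 434 at an unadjusted p under 0.05, and DESeq2 called 1. When the 19 called bins were left out, an alternative added after the data were seen, edgeR called 0 of the 20-kb windows, with 442 at an unadjusted p under 0.05. Leaving out Lam-KD replicate 1 or Lam-KD replicate 2 left 0 called 1-kb bins, with 3706 and 3531 at an unadjusted p under 0.05, leaving out control replicate 1 left 8, and leaving out control replicate 2 gave 145. The number of called 20-kb windows was 35 without Lam-KD replicate 1, 7 without Lam-KD replicate 2, 4 without control replicate 1 and 18 without control replicate 2.

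The bins that were higher in Lam-KD cells were 2 neighbours on arm 2L, chr2L:5543001-5544000 and chr2L:5544001-5545000. Together they held 2133 and 2162 reads in Lam-KD cells, against 134 and 358 reads in control cells. Per 1000000 reads of the library (RPM), this was 981 and 616 in Lam-KD cells, against 44.8 and 179 in control cells, so that the conditions did not overlap. Relative to the mean of the 6 flanking bins, the density was 31.5- and 21.3-fold in Lam-KD cells, against 1.47- and 7.41-fold in control cells. The peak was thus seen in both Lam-KD libraries and, lower, in control replicate 2, and it ended within 1 bin on either side.

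The first of these bins had a log2(FC) of 2.95 ± 0.93 (SE) and the other 2.83 ± 0.93, with adjusted p values of 6.0e-14 and 1.0e-13 in edgeR. DESeq2 called neither, with an adjusted p of 1.00 for both. The 20-kb window around them, chr2L:5540001-5560000, had 2484 and 2694 reads in Lam-KD cells, against 592 and 649 reads in control cells, with a log2(FC) of 1.89 ± 0.45 and an adjusted p of 4.6e-12 in edgeR and 0.102 in DESeq2. With 1 library left out at a time, the log2(FC) of this window lay between 1.54 and 2.25 and edgeR called it each time. The 2 bins were not called without either Lam-KD library, when 0 bins were called in all, although their log2(FC) was then 2.58 and 3.25 in the first bin and 2.47 and 3.12 in the other. Without control replicate 1 it was 2.196 and 2.064, and both bins were called.

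At 75 bases per read, a 1-kb bin can hold at most 2148 reads once duplicates are removed. The higher of the 2 bins held 1363 and 1376 reads in Lam-KD cells, the highest counts of these libraries, although these libraries differed in depth. Whether duplicate removal limited these counts was not tested.

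The peak was not a constant feature of the immunoprecipitated libraries. The same 2 bins had 46.2 and 86.3 RPM in the Lam-KD H3 pan-acetylation libraries, against 177 and 32.6 in the control ones. This was 1.11- and 2.00-fold over the flanking bins in Lam-KD cells, against 3.50- and 0.72-fold in control cells. One library of each condition was thus near or below its flanks, and the order of the conditions was not that of the inputs. The RefSeq table of Release 6 places Lam on arm 2L, but its coordinates belong to another build than these bins, and whether the bins lie in Lam was not tested.

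**Figure D4:**
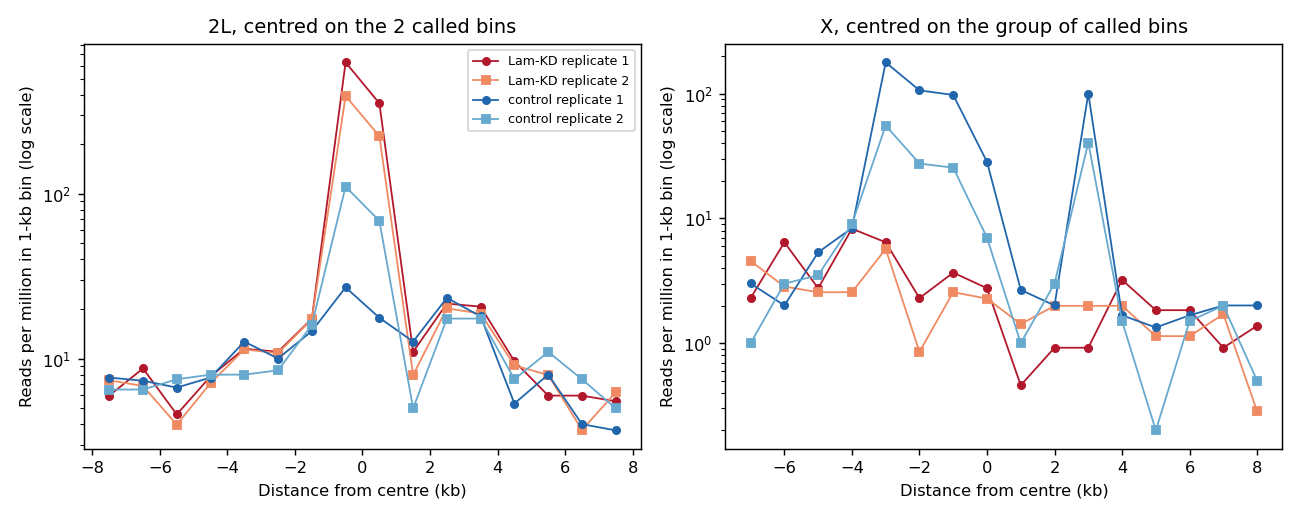
RPM in 1-kb bins around 2 places where the inputs differed, against the distance from the centre of each place in kb, on a log scale, with 1 line per library. On 2L (left) the 2 central bins rise in both Lam-KD libraries and in control replicate 2, and on X (right) 5 bins rise in both control libraries. The bin with 0 reads is drawn at 0.2.

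The bins that were lower in Lam-KD cells were mainly bins in which control replicate 1 was high. Of the 17, 13 had at least 2-fold more RPM in control replicate 1 than in control replicate 2. Counted separately, 13 of the 17 were lower in Lam-KD cells in all 4 pairs of libraries, and in the rest the conditions overlapped. One of the latter, chrX:14275001-14276000, held 5 and 4 reads in Lam-KD cells, against 54 and 4 reads in control cells. The largest group lay on X between 2684001 and 2691000, where 5 bins held 35 and 47 reads in Lam-KD cells, against 1528 and 312 reads in control cells. This was 16.1 and 13.4 RPM in Lam-KD cells, against 511 and 156 in control cells, or 1.00- and 1.37-fold over the 8 flanking and intervening bins in Lam-KD cells, against 32.6- and 11.1-fold in control cells. Both control libraries lay above both Lam-KD libraries, which stood near the level of the flanks. In the H3 pan-acetylation libraries the same bins had 72.7 and 8.73 RPM in Lam-KD cells, against 7.79 and 26.0 in control cells, so that the highest library there was a Lam-KD one.

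By log2(FC), the bin chrX:2685001-2686000 had the largest fall, with -5.60, followed by chrX:2690001-2691000 with -5.50, chrX:2686001-2687000 with -4.42 and chrX:2684001-2685000 with -4.33. Of these, DESeq2 called the bins at 2690001 and 2684001, with adjusted p values of 5.1e-05 and 0.0116. The 20-kb window chrX:2680001-2700000 had 102 and 133 reads in Lam-KD cells, against 1630 and 366 reads in control cells, with a log2(FC) of -3.20 ± 0.76 (SE) and an adjusted p of 1.4e-09 in edgeR and 0.102 in DESeq2. Without control replicate 1 the log2(FC) of this window was -2.14, and those of the 4 bins, in the order above, were -4.24, -4.64, -3.07 and -3.20, all of them called by edgeR. This window lies in the segment chrX:2640001-3560000, the only one whose log2(FC) exceeded 0.1 in size.

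At the base of arm 3L, both control libraries were high to a similar degree. The bin chr3L:23743001-23744000 held 13 and 37 reads in Lam-KD cells, against 425 and 312 reads in control cells, or 5.98 and 10.5 RPM in Lam-KD cells, against 142 and 156 in control cells. Its log2(FC) was -4.09 ± 0.31 (SE), with an adjusted p of 1.0e-23 in edgeR and 3.5e-35 in DESeq2. The 20-kb window chr3L:23740001-23760000 had 197 and 328 reads in Lam-KD cells, against 687 and 480 reads in control cells, with a log2(FC) of -1.34 ± 0.12, and was the only 20-kb window that DESeq2 called. With 1 library left out at a time its log2(FC) lay between -1.38 and -1.32, and edgeR called it each time. In the H3 pan-acetylation libraries the bin held 17.5 and 7.03 RPM in Lam-KD cells, against 6.34 and 22.2 in control cells, which overlapped between conditions.

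Chosen after its values were seen, chr2R:18519001-18520000 was the fourth bin that DESeq2 called. It held 16 and 29 reads in Lam-KD cells, against 150 and 87 reads in control cells, with a log2(FC) of -2.57 ± 0.37 (SE) and an adjusted p of 1.2e-12 in edgeR. The remaining called 20-kb window was chrUextra:5220001-5240000, with 2 and 19 reads in Lam-KD cells, against 89 and 15 reads in control cells, a log2(FC) of -2.44 ± 1.36 and an adjusted p of 0.0345 in edgeR. Without control replicate 1 its log2(FC) was -1.07 and it was not called. In RPM, Lam-KD replicate 2 and control replicate 2 were close there, at 5.41 and 7.51 over the window.

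Control replicate 1 held 82 bins with at least 50 reads in which it was at least 2-fold above the highest of the other 3 libraries, a rule chosen after the data were seen. By the same rule Lam-KD cells had 0 and 1 bins, and control replicate 2 had 0. These 82 bins held 7585 reads, 0.254% of the library, and 74 of them had no neighbour in the set. They were 2.42-fold over the next library in the median, and 27 of them lay on X. The next highest library was Lam-KD replicate 1 in 42, Lam-KD replicate 2 in 10 and control replicate 2 in 30. Of the 19 bins called between the conditions, 13 were among the 82.

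LADs were the chromatin that the study set out to release, so the inputs were also summed over topologically associating domains (TADs). Boundaries and LAD coverage came from the study's source data. The paper took its LADs from published profiles of Kc167 cells, a related female line, and not from S2 cells. For its analysis of contacts it kept only TADs whose contact frequency changed in the same direction in most replicate comparisons. Whether the regions used here are that subset was not examined. LADs covered at least 0.8 of 58 TADs, whose log2(FC) had a median of 0.034, and 43 of these LAD-rich TADs were higher in Lam-KD cells. LADs covered at most 0.2 of another 58 TADs, whose log2(FC) had a median of 0.0016, and 31 of these LAD-poor TADs were higher. With cut-offs of 0.9 and 0.1 the medians were 0.035 in 13 LAD-rich TADs, 8 of them higher, and 0.013 in 45 LAD-poor TADs, 28 of them higher, so that the shares of higher TADs were then alike. Over all 423 TADs and inter-TADs the median was 0.00049, and 215 were higher (50.8%). The median of the LAD-rich TADs was between 0.028 and 0.044 over the 4 comparisons of single Lam-KD and control libraries, and it was 0.00026 between the Lam-KD replicates and -0.0030 between the control replicates.

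With all 4 libraries, no LAD-rich TAD was called singly. edgeR called 1 of the 423 regions (0.236%), which was chr2L:5540001-5940000, where the peak of 2 bins lies, with a log2(FC) of 0.30. Of the LAD-rich TADs edgeR called 0, and 11 had an unadjusted p under 0.05. Of the LAD-poor TADs edgeR called 0, and 6 had an unadjusted p under 0.05. DESeq2 was not run on TADs, and without control replicate 2 the number of regions called was 4, of which 1 was a LAD-rich TAD.

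Input reads were also compared by acetylation, in a grouping chosen after the data were seen. Autosomal 20-kb windows were divided into 5 groups of 956 or 957 by their ratio of H3 pan-acetylation reads to input reads. The input reads in this ratio came from the same libraries that were then compared, and the effect of this on the groups was not tested. The least acetylated group held 16.7% and 16.4% of the input reads in Lam-KD cells, against 16.3% and 16.4% in control cells, with a mean log2 ratio of 0.021. The most acetylated group held 26.5% and 26.8% in Lam-KD cells, against 27.1% and 27.0% in control cells, with a mean log2 ratio of -0.019. The conditions did not overlap in either group, and an exact permutation test gave p = 0.333, the smallest it can give. The ratio of Lam-KD replicate 1 over Lam-KD replicate 2 was 0.025 in the least and -0.017 in the most acetylated group. That of control replicate 1 over control replicate 2 was -0.0033 and 0.0019. The difference between conditions was thus of the size of the spread between the Lam-KD replicates and larger than that between the control replicates. In the group next to the least acetylated the conditions did not overlap either, with a mean log2 ratio of 0.019. They overlapped in the remaining groups.

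**Figure D5:**
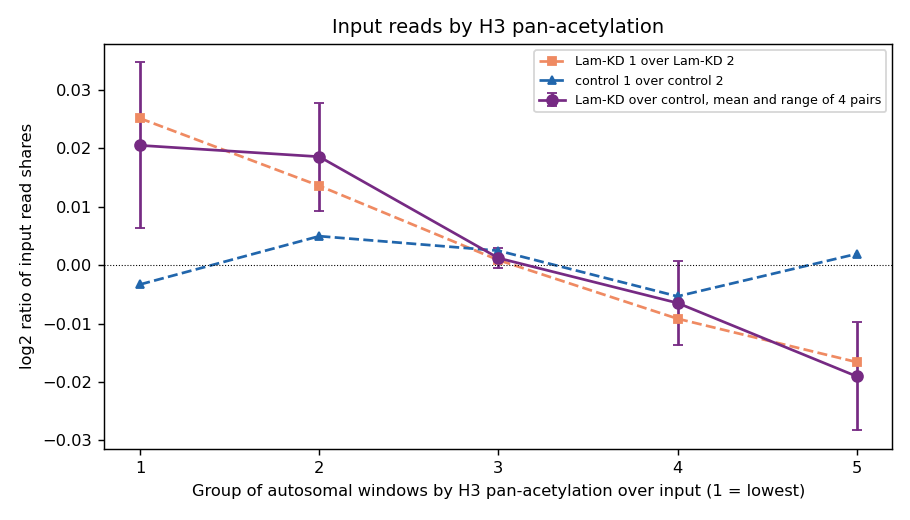
Log2 ratio of the share of input reads in 5 groups of autosomal 20-kb windows, ordered by H3 pan-acetylation over input, for Lam-KD over control (purple, mean and range of 4 pairs) and for the replicates within each condition (dashed). Lam-KD over control is 0.021 in the least and -0.019 in the most acetylated group, and Lam-KD replicate 1 over Lam-KD replicate 2 follows it, with 0.025 and -0.017.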

How the data were processed

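The authors mapped single-end ChIP-seq and input reads to dm3 with Bowtie 2 (version 2.2.1, per the labels), used SAMtools to drop poorly mapped reads and then duplicates, counted reads with BEDtools (version 2.16.2) and deposited whole-number counts of reads per full 1-kb bin for each library, not scaled and not pooled. Base composition and mappability were not examined, and intervals cover counting error only.

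Counts were summed to 20-kb and 1-Mb windows, segments, TADs and chromosomes and divided by the library total. Features with a mean of at least 10 reads were tested with the quasi-likelihood test of edgeR 4.0.16, on the library totals without further normalization factors, in R 4.3.3. DESeq2 1.42.0 was an alternative, and the SE of each log2(FC) comes from it. The edgeR fit of 20-kb windows, but not the segmentation, was tested on simulated counts. Segments used windows with at least 10 covered bins, at least 10 windows each and a penalty of 10 times the noise variance times the logarithm of the number of windows. Single values were compared by exact permutation over the 4 libraries. The remaining steps ran in pandas 2.3.3, numpy 2.4.6, matplotlib 3.10.9 and scipy 1.17.1 under Python 3.11.15.

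Named regions were every chromosome and scaffold, the 10 highest and 10 lowest segments of at least 500 kb, the 3 highest and 3 lowest 1-Mb windows on autosomes and on X, the 5 largest rises and falls among called features with 1 direction in all 4 pairs, or, with no call, the 3 smallest p in each direction. Members and lists were chosen with earlier results of these data known. Alternatives covered scaling, filters, DESeq2, the segmentation and leaving out libraries. RNA-seq and Hi-C files were not used.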

Additional observations from a re-analysis of the deposited data

Results flagged for a closer look

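In 4 of the 1-kb bins called between the inputs, 1 library of the H3 pan-acetylation experiment, which the comparisons of inputs do not use, stood at least 4-fold above both control immunoprecipitated libraries. The bin chrX:14274001-14275000 had 8.60 reads per 1000000 reads of the library (RPM) in Lam-KD ChIP replicate 1, against 0.84 and 0.92 in the control ChIP libraries, and chrX:14275001-14276000 had 7.10, against 1.30 and 1.14. The bin chrUextra:5224001-5225000 had 7.13 RPM in the same library, against 1.30 and 1.07 in the control ones, and chrUextra:26599001-26600000 had 7.83, against 0.38 and 0.31. In the inputs, these bins were instead highest in control replicate 1. Of the 82 bins in which that input stood apart, 9 were at least 2-fold higher in Lam-KD ChIP replicate 1 than in any other immunoprecipitated library, and 0 were so in each of the other 3.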

How the results depend on the processing

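Counts of called features depended on the settings. With edgeR, 20-kb windows gave 4 to 35 calls with 1 library left out, 1 with DESeq2 and 0 without the called 1-kb bins. For 1-Mb windows there was 1 call each with TMM factors, size factors and autosomal reads as library size, 2 with DESeq2 and 0 to 6 with 1 library left out. For 1-kb bins there were 44 without a filter, 4 with DESeq2 and 0 to 145 with 1 library left out. For segments there were 0 with TMM factors, size factors, either penalty and either set of bins removed, and 0 to 3 with 1 library left out. Segment chr2L:4800001-7960000 had a log2(FC) of -0.00094 without its 2 peak bins and -0.00027 without all called bins, and chrX:2640001-3560000 had 0.019 without all called bins.

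Whether the replicate numbers pair the samples was not settled. The replicate differences of the conditions had a correlation of -0.029 over 7077 windows. These differences are largely counting error, which weakens such a correlation whether or not samples are paired. A replicate block gave 7 calls of 20-kb windows, 5 of 1-Mb windows and 0 of segments.

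The difference in the X to autosome ratio, Lam-KD minus control, was -0.00008, and it was 0.0067 as a median of windows, 0.0179 in the lower quartile of the ChIP libraries, 0.0024 without the bins in which 1 library stood apart and -0.0088 to 0.0086 with 1 library left out. The number of segments was 131 with the penalty halved, 44 with it doubled, 34 with 50-kb windows and 64 to 69 with 1 library left out. The LAD-rich median was 0.026 with TMM factors and 0.032 to 0.040 with 1 library left out.

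With 1 library left out, 9 to 14 of the 15 chromosomes and scaffolds did not overlap, although fewer libraries also separate more readily without any difference. The log2 share then ranged over -0.0090 to 0.0052 on 3L, -0.0058 to 0.081 on 2RHet, -0.045 to 0.10 on 3RHet, -0.054 to 0.18 on U, -0.17 to 0.26 on Uextra, -0.31 to 0.33 for mitochondrial reads and -0.022 to 0.016 on X. On 3L it was 0.00097 per autosomal read. Where no alternative above shows the cause of a change, the cause was not tested.

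The planned count of mitochondrial reads without a partial last bin was not run, since the files list full bins only. There were 2 libraries a condition, with 1997575 to 3512310 reads each. Counting error alone gives log2 ratios of 20-kb windows an SD of 0.11 to 0.13. Smaller changes of single windows were not detectable, and larger ones need not have been. On the arms the SE of log2(FC) had a median of 0.13. The smallest log2(FC) in size among the 20-kb windows that edgeR called was -1.34.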
